A study of Mus musculus with 2 samples.

Results

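The 10 genes described here make, remodel or take up lipoproteins in the liver, and were taken as a list by name: Apob, Mttp, Apoa1, Apoa4, Apoc3, Apoe, Lpl, Lipc, Cd36 and Scarb1. Of these, 9 of 10 are among the 19059 genes in the count tables. Mttp, the transfer protein that loads lipid onto apolipoprotein B, was not analysed here. The question was where each gene's RNA lay among hepatocytes, macrophages, endothelial and stellate cells, whether it varied from the central vein to the portal tract, and how the libraries differed.

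The data came from single-cell RNA profiling with 1 library per genotype, so no difference between the libraries has a replicate check and no p-value is given. Mice carrying floxed alleles of AEG-1 (the gene Mtdh), with LysM/Cre in the library labelled AEG-1DMAC and without it in the library labelled AEG-1fl/fl, received HF/HSD (a high-fat and high-sugar diet) from 7 weeks of age for 20 weeks, and livers were collected at 27 weeks. Cre was driven by the myeloid gene Lyz2, which limits the intended deletion to macrophages and other myeloid cells, and whether a library pools several livers is not given in the sources used here. The library labelled AEG-1DMAC held 2581 cells with 79589511 counts and that labelled AEG-1fl/fl held 3535 cells with 90440089 counts, and 10 cell barcodes occur in both. After a filter on genes and mitochondrial counts, 2571 and 3508 cells remained, with median counts of 12746 and 7682 per cell. Mtdh, the targeted gene, ran against the label in macrophage-like cells, at 128 CPM (counts scaled to a class total of 1000000) in the library labelled AEG-1DMAC and 29.4 in that labelled AEG-1fl/fl, so every direction below rests on the labels as deposited. Where the probes for Mtdh lie relative to the deleted part is not given in the sources used here.

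Hepatocytes export triglyceride and cholesterol in very low-density lipoprotein (VLDL), a particle built around 1 molecule of apolipoprotein B to which apolipoproteins C-III, E and A-IV are added, and they also secrete apolipoprotein A-I, the scaffold of high-density lipoprotein (HDL). In the circulation, lipoprotein lipase (Lpl) and hepatic lipase (Lipc) hydrolyze the lipid of these particles. CD36 takes up long-chain fatty acids and oxidized lipoproteins, and scavenger receptor class B type 1 (Scarb1) takes up cholesterol esters from HDL. In steatotic liver, lipid-laden macrophages with high Gpnmb and Trem2 are known for lipid handling genes.

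The genes for apolipoproteins A-I, C-III and A-IV are neighbors on chromosome 9 (GRCm38; Apoa1 at chr9:46228580-46230466, Apoc3 at chr9:46232933-46235636, Apoa4 at chr9:46240696-46243459), and Lipc lies on the same chromosome at chr9:70798128-70952226. Apob is at chr12:7977648-8016835, Apoe at chr7:19696109-19699188, Lpl at chr8:68880491-68907448, Cd36 at chr5:17781690-17888801 and Scarb1 at chr5:125277087-125341094. Promoter windows of 250 bases before to 50 bases after a start site, from RefSeq on GRCm38.p6, were available for 7 of the 10 genes (Mttp included). They were searched on both strands for CAAAGNNCA, the core of sites bound by the hepatocyte factor HNF4A. A match was in 3 of the 10 windows of these genes, 1 each for Apob, Apoa4 and Lipc, and in 6.36% of all 32851 windows in the table. A match describes letters only. The windows of Apob, Apoa1 and Apoa4, whose RNA lay in hepatocyte-like cells, are shown with that of Cd36. Among whole classes, Cd36 RNA was highest in endothelial-like cells. The windows are given 5′ to 3′ on the strand of each gene with matches in capitals. They lie at chr12:7977427-7977726 (plus strand), chr9:46228380-46228679 (plus strand), chr9:46240594-46240893 (plus strand) and chr5:17835847-17836146 (minus strand). The window of Cd36 lies within the span given above for that gene, and not at its 5′ end. The match begins 103 bases before the start site of Apob and 182 bases before that of Apoa4.
Apob: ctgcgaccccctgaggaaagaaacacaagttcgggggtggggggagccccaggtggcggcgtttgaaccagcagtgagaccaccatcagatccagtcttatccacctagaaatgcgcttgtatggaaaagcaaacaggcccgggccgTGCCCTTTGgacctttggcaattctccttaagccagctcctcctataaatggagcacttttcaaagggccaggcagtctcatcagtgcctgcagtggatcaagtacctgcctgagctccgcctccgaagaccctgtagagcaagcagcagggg
Apoa1: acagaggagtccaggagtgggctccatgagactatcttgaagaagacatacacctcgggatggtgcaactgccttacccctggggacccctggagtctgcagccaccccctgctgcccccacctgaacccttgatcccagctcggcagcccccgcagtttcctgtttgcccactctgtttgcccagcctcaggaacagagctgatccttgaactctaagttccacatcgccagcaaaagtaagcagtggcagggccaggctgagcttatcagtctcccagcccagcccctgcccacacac
Apoa4: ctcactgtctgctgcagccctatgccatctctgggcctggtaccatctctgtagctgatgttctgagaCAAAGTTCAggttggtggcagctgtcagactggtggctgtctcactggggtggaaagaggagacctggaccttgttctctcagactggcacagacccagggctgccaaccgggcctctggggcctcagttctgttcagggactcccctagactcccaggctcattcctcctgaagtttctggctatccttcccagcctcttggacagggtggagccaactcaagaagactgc
Cd36: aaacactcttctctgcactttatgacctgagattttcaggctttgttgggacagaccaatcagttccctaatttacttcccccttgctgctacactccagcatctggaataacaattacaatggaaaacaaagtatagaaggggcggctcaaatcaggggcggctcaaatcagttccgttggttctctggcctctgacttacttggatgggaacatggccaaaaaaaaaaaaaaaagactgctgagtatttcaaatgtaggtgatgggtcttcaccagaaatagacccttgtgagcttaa

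Cells were assigned to classes by marker genes, none of which is among the 10 genes, and each class is a range of a marker score. The hepatocyte-like class held 1200 and 1242 cells (labelled AEG-1DMAC first, here and in all pairs below), the macrophage-like class 249 and 679 (9.69% and 19.4% of kept cells), the endothelial-like class 195 and 304, and the stellate-like class 96 and 195. Within 2-fold of the marker cut lay 270 and 266 of the hepatocyte-like, 43 and 81 of the macrophage-like, 24 and 21 of the endothelial-like and 24 and 23 of the stellate-like cells. Cells with markers of more than 1 class (346 and 460) or assigned to no class (382 and 365) were left out. The unassigned cells had medians of 1199 and 1095 hepatocyte marker counts per 10000, above the hepatocyte cut of 500. In their own class, all 21 hepatocyte, 14 macrophage and 10 stellate markers were detected, as were 13 of the 14 endothelial markers listed. None of the 10 leading genes of any class was a marker of another class. The class assignment itself favors this, because cells with markers of more than 1 class were left out. A level is the CPM in a class, and its 95% interval (Poisson) covers counting error only. Because the number of probes per gene is not given, each gene is compared with itself across cells and not with other genes.

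Hepatocyte RNA was present in every other class. The 21 hepatocyte marker genes, which include albumin, stood at 37.5% and 23.7% of their hepatocyte level in macrophage-like cells, at 32.7% and 25.2% in endothelial-like cells and at 33.9% and 21.2% in stellate-like cells. This share, multiplied by a gene's level in hepatocyte-like cells, gives the level that free hepatocyte RNA alone would produce. The 21 genes individually lay between 0.716 and 1.42 times that level in these 3 classes. Of all genes with at least 20 counts in the class in each library, 89.3% in macrophage-like, 90.7% in endothelial-like and 90.6% in stellate-like cells stood at 1.5 times that level or more in both libraries. Among the 9 genes, 4 did so in macrophage-like, 3 in endothelial-like and 2 in stellate-like cells. Apob, Apoa1, Apoa4, Apoc3 and Lipc did so in none of the 3 classes. These counts take only free hepatocyte RNA into account, and not RNA from the other nonparenchymal classes.

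Apob, the structural protein of VLDL, had 2740 CPM (95% interval 2727 to 2753) and 3049 CPM in hepatocyte-like cells. In macrophage-like cells it had 1096 and 840 CPM, in endothelial-like cells 971 and 875 CPM and in stellate-like cells 1098 and 834 CPM. Both hepatocyte values were above all 6 others, and the level in macrophage-like cells was 1.07 times that of free hepatocyte RNA in the library labelled AEG-1DMAC.

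Apoa1, the scaffold of HDL, had 9414 and 9479 CPM in hepatocyte-like cells. It had 3722 and 2274 CPM in macrophage-like cells, which is 1.06 and 1.01 times the level of free hepatocyte RNA. In endothelial-like cells this ratio was 1.01 and 0.956. Apoc3, whose protein inhibits lipoprotein lipase, followed the same order, with 5657 and 5959 CPM in hepatocyte-like cells against 2175 and 1359 CPM in macrophage-like cells (1.03 and 0.962 times the level of free RNA). Apoa4, which coats triglyceride-rich particles and is induced in fatty liver, had 5859 and 8157 CPM in hepatocyte-like cells and 2243 and 1874 CPM in macrophage-like cells (1.02 and 0.969 times). Lipc, secreted by hepatocytes and held on the sinusoidal surface, had 112 and 121 CPM in hepatocyte-like cells and 56.8 and 32.0 CPM in macrophage-like cells, on 143 and 188 counts. Across the 3 classes and both libraries, these 4 genes and Apob stood at 0.608 to 1.36 times the level of free hepatocyte RNA, the lowest being Lipc in stellate-like cells on 12 counts.

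Apoe, the ligand by which remnant particles are taken up, was also high outside hepatocytes. Its level was 41826 and 38617 CPM in hepatocyte-like cells and 31074 and 39023 CPM in macrophage-like cells. In the library labelled AEG-1fl/fl the macrophage-like level was slightly above that of hepatocyte-like cells, and in the library labelled AEG-1DMAC it was below. The macrophage-like level was 1.98 and 4.26 times that of free hepatocyte RNA. In endothelial-like cells the ratio was 1.30 and 1.36, in stellate-like cells 1.30 and 1.55, and in T and NK-like cells, which are not known to make Apoe, it was 1.14 and 1.08.

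Lpl, which binds to heparan sulfate on the surface of cells and releases fatty acids from lipoproteins, was highest in macrophage-like cells. It had 936 CPM (898 to 974) and 2434 CPM (2395 to 2475) there, 178 and 239 CPM in stellate-like cells, 37.5 and 55.4 CPM in endothelial-like cells and 59.1 and 53.4 CPM in hepatocyte-like cells. The order of macrophage-like over stellate-like over the other classes was the same in both libraries, while endothelial-like cells were below hepatocyte-like cells in the library labelled AEG-1DMAC and overlapped them in the other. Relative to the level of free hepatocyte RNA, Lpl stood at 42.3 and 192 times in macrophage-like, 8.90 and 21.1 times in stellate-like and 1.94 and 4.12 times in endothelial-like cells, the last on only 35 and 72 counts. The hepatocyte-like cells in turn held macrophage RNA, at 2.71% and 1.68% of the macrophage-like level by the macrophage markers. At that share macrophage RNA would give 42.9% and 76.5% of the Lpl found in hepatocyte-like cells, against 0.382% to 4.72% for the other 8 genes. Macrophage markers also summed to 796 and 902 CPM in endothelial-like and 935 and 1070 CPM in stellate-like cells. In macrophage-like cells they summed to 20696 and 24346 CPM. The part of macrophage RNA in the Lpl of endothelial-like and stellate-like cells was not tested.

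Among whole classes, Cd36 was highest in endothelial-like cells, at 836 CPM (778 to 897) and 1012 CPM (958 to 1068). Macrophage-like cells had 430 and 672 CPM, hepatocyte-like cells 247 and 272 CPM and stellate-like cells 140 and 123 CPM, and this order was the same in each library, with no overlap between the intervals of neighboring classes. In multiples of free hepatocyte RNA, the level was 10.4 and 14.8 in endothelial-like and 4.65 and 10.4 in macrophage-like cells. Dendritic-like cells had 241 and 252 CPM on 19 and 40 counts. Gpihbp1, the endothelial protein that carries lipoprotein lipase to the capillary lumen, had 1172 and 1342 CPM in endothelial-like cells and 22.9 and 14.1 CPM in hepatocyte-like cells.

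Scarb1 was the most evenly spread of the uptake genes. It had 238 CPM (219 to 258) and 251 CPM (238 to 264) in macrophage-like cells, 176 and 224 CPM in endothelial-like cells and 162 and 190 CPM in hepatocyte-like cells. The endothelial-like and hepatocyte-like intervals overlapped in the library labelled AEG-1DMAC, and the macrophage-like and endothelial-like intervals overlapped in that labelled AEG-1fl/fl. Stellate-like cells had the lowest level of these classes, 70.9 and 108 CPM. The level was 3.91 and 5.58 times that of free hepatocyte RNA in macrophage-like and 3.31 and 4.68 times in endothelial-like cells.

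**Figure D1:**
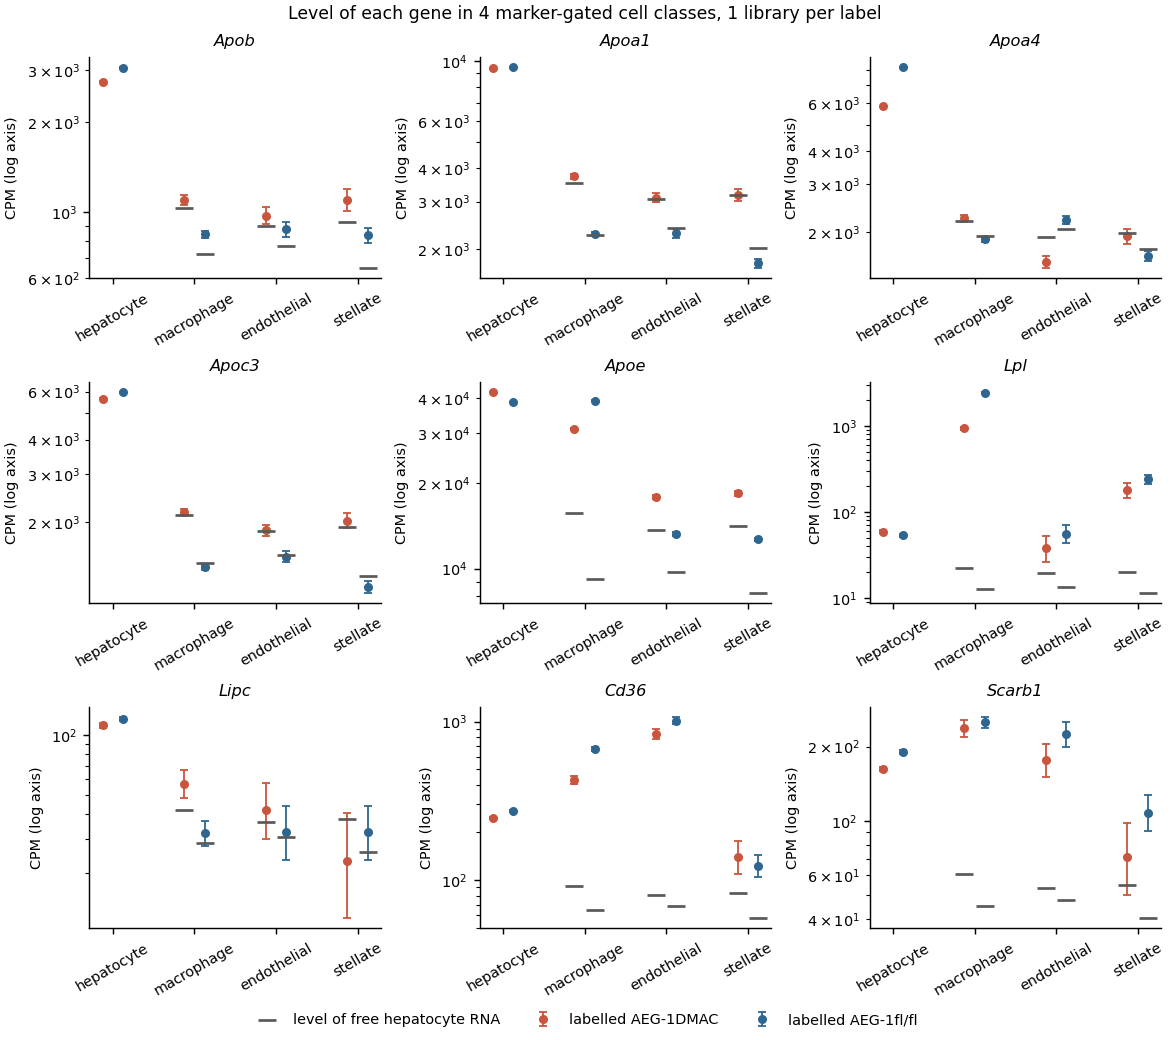
Level of 9 genes (CPM of the class total, log axis, a separate axis for each gene) in 4 marker-gated cell classes, 1 point per library with 95% Poisson intervals. The grey bars are the levels that free hepatocyte RNA would give. Apob, Apoa1, Apoa4, Apoc3 and Lipc sit near the bars outside hepatocytes, whereas Lpl is at 42.3 and 192 times their height in macrophage-like cells and Cd36 at 10.4 and 14.8 times in endothelial-like cells.

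The genes with the most similar pattern were found by Pearson's r of log2(CPM + 5) over 14 points, which are 7 classes in 2 libraries, among 11625 genes. These points share libraries and free hepatocyte RNA, and r is descriptive. For Lpl the nearest were Rab7b, Slamf9 and F13a1 (r = 0.97, 0.96 and 0.96), and for Cd36 they were Cxcl9, Nrp2 and Mrc1 (0.93, 0.92 and 0.91). Scarb1 was closest to Scamp5, Gsto1 and Lbp (0.96, 0.93 and 0.92), and Apoe to Plin2, Pcyox1 and Cebpa (0.93, 0.93 and 0.92). The nearest genes to Apob were Pzp, Apof and Hpx (0.99, 0.98 and 0.98), to Apoa1 they were Ces3a, Serpinc1 and Mug1 (0.99 each), and to Apoc3 they were Scd1, Adh1 and Rbp4 (0.99 each). Apoa4 was closest to Ces2e, Trf and Apoa5 (0.99, 0.97 and 0.97) and Lipc to Acot12, Ppara and Abcb11 (0.94, 0.93 and 0.93).

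Single hepatocyte-like cells differed widely in Apoa4 and little in Apob. Of each 10000 counts of a cell, the median was 38.0 and 61.8 for Apoa4, with 5th to 95th percentiles of 10.6 to 143 and 16.4 to 215, a 13.5-fold and 13.1-fold range. The same range was 2.96-fold and 3.34-fold for Apob, 3.77-fold and 4.50-fold for Apoa1, 3.68-fold and 3.77-fold for Apoc3 and 9.45-fold and 7.90-fold for Apoe. These percentiles are over 1090 and 1078 cells with at least 5000 counts, and 110 and 164 shallower cells were left out. After each cell was thinned to 5000 counts, the coefficient of variation beyond counting error was 1.15 and 0.871 for Apoa4 and 0.286 and 0.310 for Apob. Cd36 had 0.422 and 0.486, and Scarb1 had 0.461 and 0.383. Lpl had 0.587 and 1.15, the latter above that of Apoa4, on means of 0.274 and 0.281 thinned counts per cell.

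Most pairs of apolipoproteins varied together among hepatocyte-like cells, as described by Spearman's rho on the thinned counts without a test. The values were 0.62 and 0.53 for Apoc3 with Apoe, 0.50 and 0.48 for Apoa4 with Apoe, 0.44 and 0.35 for Apoa4 with Apoc3, and 0.39 and 0.34 for Apob with Apoa1. Apob was less related to Apoe (0.23 and 0.15) and to Apoc3 (0.20 and 0.08). Cells of a library share its preparation, and thinned counts sum to a fixed total. Scarb1 ran weakly the other way, at -0.22 and -0.23 with Apoe and -0.19 and -0.17 with Apoc3. Lpl, Lipc and Cd36 had between -0.05 and 0.01 with one another, at means of 0.274 to 1.36 thinned counts per cell, where little correlation can be seen.

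**Figure D2:**
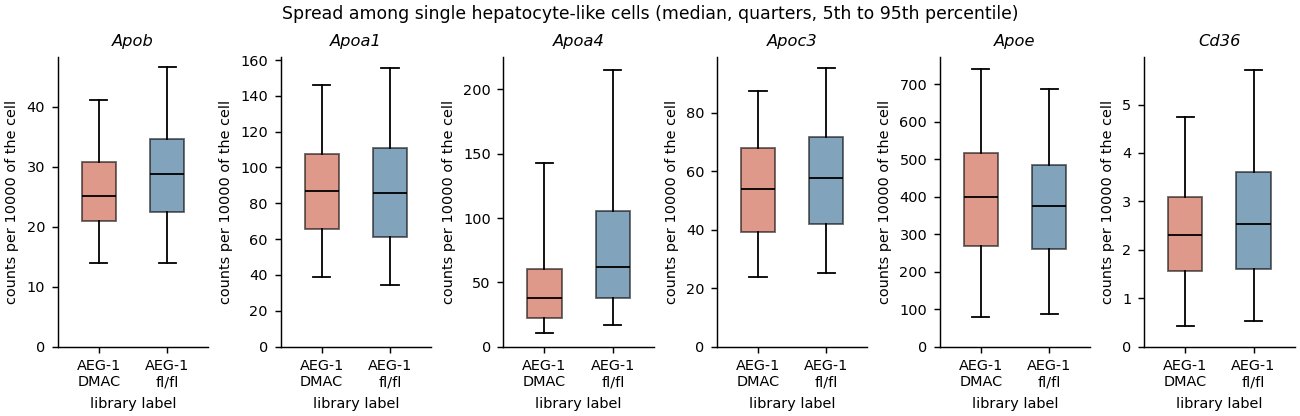
Counts of 6 genes per 10000 counts of single hepatocyte-like cells (1090 and 1078 cells) by library label, on a separate linear axis for each gene. The line is the median, the box spans the interquartile range and the whiskers the 5th to 95th percentile. Apoa4 has the longest whiskers relative to its median, and its box sits lower in the library labelled AEG-1DMAC.

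Between the libraries, none of the 9 genes differed by 1.5-fold or more in hepatocyte-like cells, where 12.9% of 12942 genes did. Ratios are log2 of the library labelled AEG-1DMAC over that labelled AEG-1fl/fl, with 95% Clopper-Pearson intervals for counting error, and a change past 1.5-fold is a size and not a test. Their median was -0.11, against 0.00 for all genes. Apoa4 was the lowest at -0.48 (-0.48 to -0.47), with 5859 against 8157 CPM. Averaged over cells with equal weight and thinned, the value was -0.65 (26.7 against 41.8 counts of 5000), and 75% of cells in the library labelled AEG-1DMAC lay below the median of the other library. The cells of the libraries overlapped, with interquartile ranges of 22.5 to 60.4 and 38.0 to 105 counts per 10000. Scarb1 was at -0.22, Apob at -0.15, Cd36 at -0.14, Lipc at -0.11, Apoc3 at -0.08 and Apoa1 at -0.01. Apoe was at 0.12 and Lpl at 0.15, and the latter changed sign, to -0.09, when cells were given equal weight.

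Macrophage-like cells differed more, with 5 of the 9 genes past 1.5-fold against 19.0% of 11546 genes. Apoa1 (0.71), Apoc3 (0.68) and Lipc (0.83) were higher in the library labelled AEG-1DMAC, beside ratios of 0.65, 0.59 and 0.55 for free hepatocyte RNA of the same genes. Lpl was lower by a log2 ratio of -1.38 (-1.44 to -1.32), with 936 against 2434 CPM. Cd36 was at -0.64 (-0.74 to -0.55), with 430 against 672 CPM. Apoe was at -0.33 (-0.34 to -0.32), and at -0.96 after the level of free hepatocyte RNA was subtracted. Lpl and Cd36 were then at -1.41 and -0.85. The remainder was not rescaled for the part taken out, 37.5% and 23.7% by the hepatocyte markers, which makes these subtracted values lower. Scarb1 was at -0.08 (-0.22 to 0.06).

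**Figure D3:**
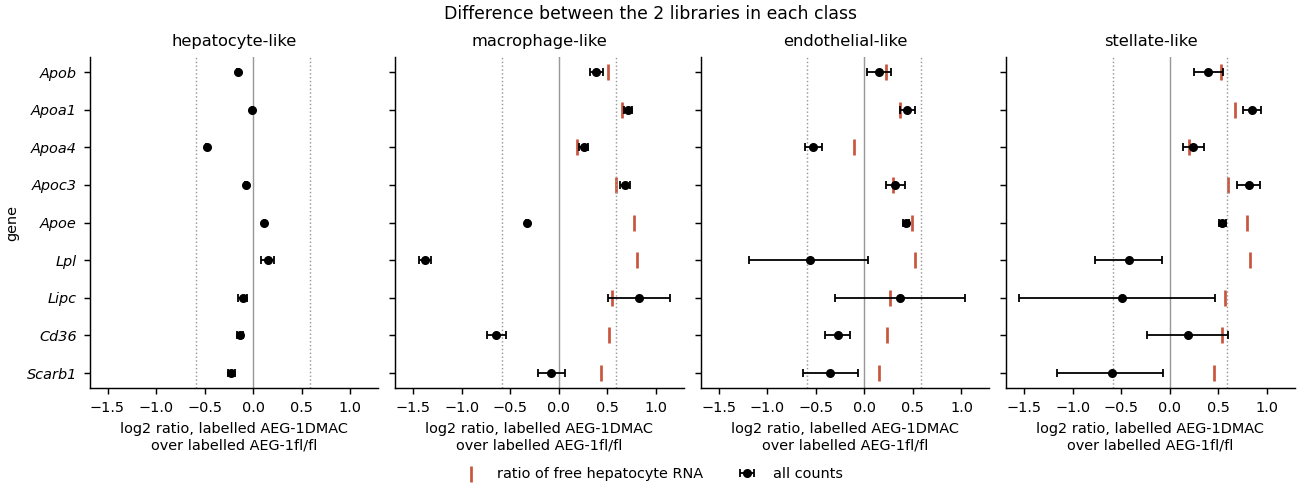
Log2 ratio of CPM, library labelled AEG-1DMAC over that labelled AEG-1fl/fl, for 9 genes in 4 classes, with 95% Clopper-Pearson intervals as bars. Dotted lines mark 1.5-fold, and the red ticks give the ratio of free hepatocyte RNA for the gene. Lpl in macrophage-like cells, at -1.38, lies far from its tick, whereas Apoa1 and Apoc3 lie near theirs.

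The mix of macrophage-like cells differed between the libraries. Cells with at least 10 counts per 10000 of 6 program genes (Gpnmb, Mmp12, Trem2, Itgax, Cd9 and Cd63) were 89 of 249 and 475 of 679. Within these cells Lpl had 1800 and 3069 CPM (log2 ratio -0.77), where 19.6% of genes were past 1.5-fold, and within the remaining 160 and 204 cells 432 and 675 CPM (-0.64), where 16.3% were. Lipc was also past 1.5-fold in the first, at 0.67 on 36 and 105 counts. Cd36 was at -0.20 in the first and -0.36 in the second, and neither passed 1.5-fold. Scarb1 was at 0.00 and -0.20. Weighted to the same mix of 6 ranges of the program, Lpl was at -0.57, Apoe at -0.25, Cd36 at 0.055 and Scarb1 at -0.18, and none of the 9 genes passed 1.5-fold. This weighting was added after the values had been seen.

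Along the program, Lpl had 269 CPM (235 to 307) in the lowest range and 2445 CPM (2197 to 2713) in the highest in the library labelled AEG-1DMAC, on 92 and 25 cells. The same ranges had 469 CPM (400 to 545) and 4565 CPM (4462 to 4669) in the library labelled AEG-1fl/fl, on 62 and 159 cells. In 5 of 6 ranges Lpl was lower in the library labelled AEG-1DMAC, with log2 ratios from -0.90 to 0.27. Cd36 went from 252 to 1340 CPM and from 309 to 1196 CPM, with the steepest step in the top range. That range was above the endothelial-like class in each library, which had 836 and 1012 CPM. Scarb1 was between 203 and 283 CPM in the lower 5 ranges of both libraries and had 145 and 200 CPM in the top range. Apoe had 28705 and 25565 CPM in the lowest range and 29311 and 40276 CPM in the highest, with its highest values at 40143 CPM in the third range and 42630 CPM in the fifth range, respectively. Albumin, a measure of free hepatocyte RNA, had 30688 and 20178 CPM in the lowest range and 11686 and 7854 CPM in the highest, with 40078 CPM in the third range of the library labelled AEG-1DMAC. Its part in these differences was not tested.

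**Figure D4:**
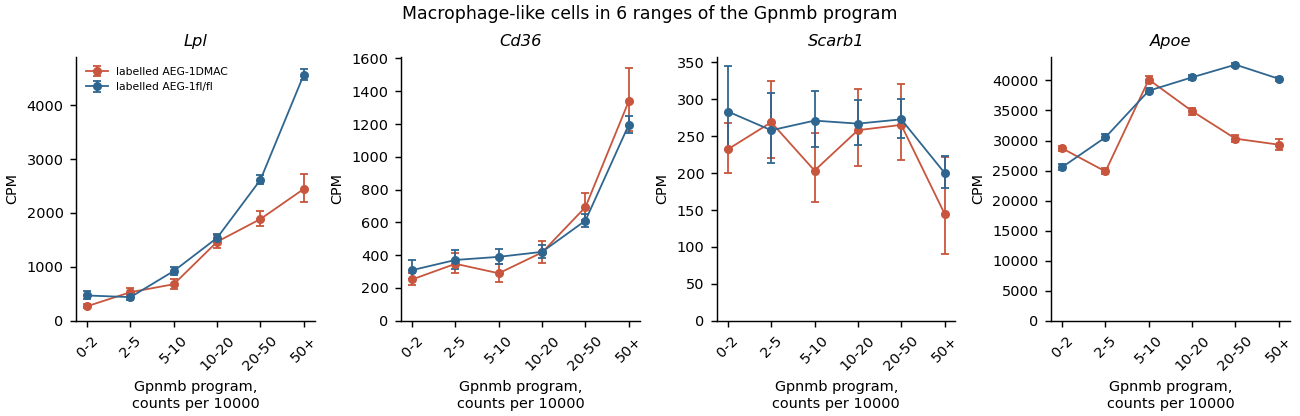
CPM of Lpl, Cd36, Scarb1 and Apoe in macrophage-like cells split into 6 ranges of the Gpnmb program (counts per 10000), with 95% Poisson intervals. Lpl is at 269 and 469 CPM in the lowest range and at 2445 and 4565 CPM in the highest, and the intervals of Cd36 overlap between the libraries in all 6 ranges.

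Endothelial-like cells had 0 of 9 genes past 1.5-fold, against 18.3% of 10065 genes. Cd36 was at -0.28 (-0.41 to -0.15), Scarb1 at -0.35 (-0.64 to -0.07) and Lpl at -0.56 (-1.19 to 0.04). In stellate-like cells 3 of 9 genes were past 1.5-fold, against 25.4% of 10033 genes. Of these, Apoa1 (0.85) and Apoc3 (0.81) stood beside free RNA ratios of 0.67 and 0.60, and Scarb1 (-0.60) rested on 37 and 140 counts and was at 0.15 when cells were given equal weight. Lpl in stellate-like cells was at -0.42 (-0.77 to -0.08), on 93 and 311 counts.

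Along the lobule, hepatocyte-like cells were ordered by periportal minus pericentral markers and cut into 3 equal groups of 400 and 414 cells. Glul, an enzyme of the pericentral layer, differed by a log2 ratio of 4.58 and 4.08 (pericentral over periportal), and Cyp2f2, a periportal enzyme, by -3.63 and -5.37. Both are among the markers that set the order. None of the 9 genes passed 1.5-fold the same way in both libraries, against 9.51% of 11730 genes.

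Cd36 had the largest pericentral excess, at 0.37 (0.31 to 0.43) and 0.67 (0.62 to 0.72), with 270 and 331 CPM in pericentral against 209 and 209 CPM in periportal cells. Apoc3 was lower in pericentral cells, at -0.39 and -0.30, from 4912 to 6447 CPM and from 5421 to 6681 CPM toward the portal side. Apoa4 was at 0.22 and 0.21, although in the library labelled AEG-1DMAC levels did not follow the order, with 4702, 8322, 5841, 6101 and 4786 CPM in 5 equal groups from pericentral to periportal. Apoe was at 0.22 and 0.07 and Apob at -0.06 and -0.04. Apoa1 (0.11 and -0.15), Lipc (0.28 and -0.05) and Scarb1 (-0.04 and 0.07) had opposite signs in the libraries. Lpl was at 0.10 and 0.58, beside the macrophage RNA given above, whose part was not tested. Plin2, the lipid droplet coat protein, was also higher in pericentral cells, at 0.57 and 0.79.

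The lower Apoa4 of the library labelled AEG-1DMAC was present in each of the 3 groups, at -0.49 in pericentral, -0.41 in midlobular and -0.51 in periportal cells. Cd36 was at -0.30, -0.09 and 0.00 in the same groups. Scarb1 was at -0.28, -0.24 and -0.17.

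**Figure D5:**
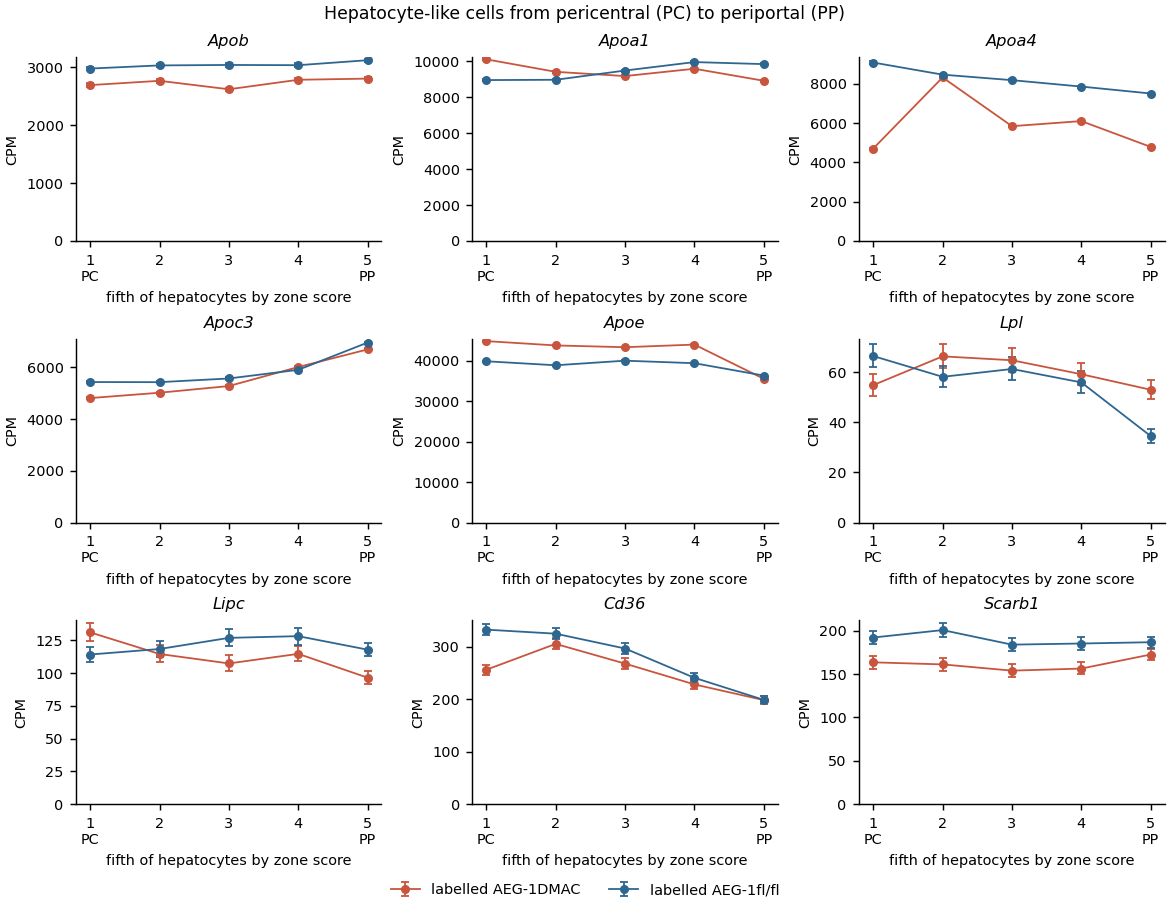
CPM of 9 genes in 5 equal groups of hepatocyte-like cells (240 and 248 to 249 cells each) from pericentral (PC) to periportal (PP), with 95% Poisson intervals and axes from 0. In both libraries Cd36 is lowest, at 199 CPM, and Apoc3 highest, at 6693 and 6958 CPM, in the most periportal group.

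Other genes of the pathway were counted from 7 lists. Genes counted had at least 20 counts over both libraries, and those called highest or lowest had at least 200. In hepatocyte-like cells, where 12.9% of all genes were past 1.5-fold, 1 of 11 other apolipoproteins was higher and 1 lower, with a median of -0.07 against 0.00 for all genes. Saa4, an HDL apolipoprotein of the serum amyloid family, was at 1.30 and Apoa5, an activator of lipoprotein lipase, at -0.59, with Apoa2 (0.25) and Apom (-0.57) next. Of 19 further VLDL assembly genes, 0 were higher and 2 lower, Ces1d, a lipase that mobilizes stored triglyceride for secretion, at -0.84 and Dgat2, the last enzyme of triglyceride synthesis, at -0.64. The highest were Vmp1 (0.40) and Aadac (0.34). Of 14 remodelling and efflux genes, 3 were higher and 1 lower. Abcg5 and Abcg8, the partners that export cholesterol into bile, were at 1.30 (449 against 183 CPM) and 1.004 (194 against 96.7 CPM), and Gpihbp1 was at 0.71 (22.9 against 14.1 CPM). The 13 endothelial markers measured summed to 211 and 139 CPM in hepatocyte-like cells, and their part in the value of Gpihbp1 was not tested. Angptl4, an inhibitor of lipoprotein lipase, was at -0.67 (176 against 282 CPM), and Abcg1, a cholesterol exporter, at -0.31.

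Of 12 other lipoprotein receptor genes, 1 was higher in hepatocyte-like cells, Mylip, a ligase that degrades the LDL receptor, at 0.84, and Lsr, a receptor for remnants, was lowest at -0.38, with Msr1 (0.41) and Scarb2 (-0.25) next. Msr1 had 13.7 and 10.3 CPM there against 432 and 533 CPM in macrophage-like cells, and the part of macrophage RNA was not tested. Of 13 other fatty acid uptake genes, 0 were higher and 3 lower, and these were Cav1, the coat protein of caveolae (-1.40 on 101 and 292 counts), and the fatty acid binding proteins Fabp4 (-0.92, with 54.0 against 102 CPM) and Fabp5 (-0.83). The highest, Fabp2 and Slc27a5, were at 0.34 each. Of 17 regulators, Nr0b2, a repressor of bile acid synthesis, was at 1.33 and none was lower past 1.5-fold, with Nr1h4, the bile acid receptor, lowest at -0.51 and Mlxipl, a carbohydrate-sensing activator of lipogenesis, at 0.55. Of 11 lipid droplet genes, 1 was higher (Pnpla3 at 0.64, with Plin4 next at 0.49) and 2 lower, G0s2, an inhibitor of triglyceride lipase, at -0.82 and Fitm2, a factor for droplet formation, at -0.59.

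In macrophage-like cells, where 19.0% of all genes were past 1.5-fold, the same lists had 4 higher and 0 lower of 11 apolipoproteins, 4 and 1 of 19 assembly genes, 5 and 2 of 14 remodelling genes, 2 and 1 of 10 receptor genes, 4 and 3 of 13 fatty acid uptake genes, 4 and 1 of 17 regulators and 4 and 0 of 10 lipid droplet genes. Saa4 (2.39), Abcg5 (1.79) and Slc27a5 (1.22), the highest of their lists, stood between 0.850 and 1.29 times the level of free hepatocyte RNA. The highest of the other lists, among genes with at least 200 counts, were Aadac (1.11), Plin4 (0.86), Mlxipl (0.85) and Pdzk1 (0.85). With fewer counts, Nr0b2 was at 1.81 (78 and 52 counts) and Cav1 at -4.06 (2 and 78 counts). Of the lowest in each list with at least 200 counts, Fabp5, Sort1, Pparg and Pnpla2 (-0.24) stood at 3.30 times the level of free hepatocyte RNA or more in both libraries. Among them were Fabp5, a fatty acid binding protein of macrophages, at -1.81 (49.6 against 174 CPM, 10.8 and 33.8 times free RNA), Sort1, a sorting receptor, at -1.56 (28.2 against 83.0 CPM) and Pparg, a nuclear receptor for fatty acids, at -0.99 (31.4 against 62.1 CPM). Sdc1, a heparan sulfate proteoglycan that binds remnants, was at -0.77 with 0.901 and 2.11 times the level of free RNA, and Apom was at -0.41 with 0.748 and 1.06 times.

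In endothelial-like cells, where 18.3% of all genes were past 1.5-fold, 4 were higher and 0 lower of 11 apolipoproteins, 2 and 1 of 18 assembly genes, 4 and 0 of 12 remodelling genes, 0 and 0 of 9 receptor genes, 2 and 1 of 12 fatty acid uptake genes, 2 and 1 of 14 regulators and 3 and 0 of 9 lipid droplet genes. Among genes with at least 200 counts, the highest of their lists were Plin4 (2.08), Slc27a5 (0.83), Apoc1 (0.81) and Lcat (0.71). These were past 1.5-fold and at 0.430 to 1.18 times the level of free hepatocyte RNA. The highest of the other lists, Hnf4a (0.52), Mia3 (0.48) and Scarb2 (0.27), were not past it. With fewer counts, Mlxipl was at 2.71 (127 and 27 counts) and Abcg5 at 2.27 (125 and 36 counts). Among the lowest with at least 200 counts, Fabp5 was past 1.5-fold at -0.82 (157 against 276 CPM). Hspg2, the heparan sulfate proteoglycan perlecan, at -0.52 (832 against 1189 CPM), and Msr1, a scavenger receptor for modified LDL, at -0.31 (440 against 548 CPM), were not, nor were Foxo1 (-0.22), Lpcat3 (-0.14), Pnpla2 (-0.01) and Apoc2 (0.14). In stellate-like cells, where 25.4% of all genes were past 1.5-fold, 6 were higher and 0 lower of 11 apolipoproteins, 2 and 1 of 18 assembly genes, 3 and 0 of 13 remodelling genes, 2 and 0 of 9 receptor genes, 3 and 1 of 12 fatty acid uptake genes, 0 and 1 of 12 regulators and 3 and 1 of 10 lipid droplet genes. Among genes with at least 200 counts, Apoa2 (1.12), Slc27a5 (1.03) and Aadac (0.86) were the highest of their lists, at 0.918 to 1.33 times the level of free hepatocyte RNA. Pnpla2 (0.14), Nr1h4 (0.02) and Lrpap1 (-0.16) were the highest of theirs and not past 1.5-fold. With fewer counts, Plin4 was at 0.77 (80 and 117 counts) and Msr1 at 0.88 (25 and 34 counts). Of the lowest with at least 200 counts, G0s2 was past 1.5-fold at -0.74 (251 against 419 CPM). Sar1a (-0.54), Sdc1 (-0.43), Acsl4 (-0.30), Apoa5 (-0.27) and Creb3l3 (-0.05) were not.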

How the data were processed

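The deposited values are whole-number counts for every gene in every cell, 1 matrix a library, made with the 10x Genomics mouse transcriptome probe kit for fixed RNA, Cell Ranger 7.1.0 per the labels and the mm10 reference. Probe counts can be changed by probe number per gene, dissociation and free RNA. The 10 genes and all lists were chosen with earlier results of these data known. Cells were kept from 100 detected genes upward if no more than 10% of counts were mitochondrial. A nonparenchymal class needed 3 markers and 40 marker counts per 10000 (15 for cholangiocytes, T and NK cells and dendritic cells). Its score, relative to its cut, had to be 3 times that of any other nonparenchymal class. Hepatocyte-like cells needed 500 hepatocyte marker counts per 10000 and low nonparenchymal scores. The hepatocyte score was not in the 3-fold comparison, so nonparenchymal cells above the hepatocyte cut could be kept, within the limit given next. Nonparenchymal cells with 1000 or more hepatocyte marker counts per 10000 were left out as mixed, and no doublet caller was run. These cuts were set after the data had been seen. Counts were summed per class and library. A ratio needed 20 summed counts.

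Genes named from the lists are the 2 highest and 2 lowest ratios in hepatocyte-like cells and 1 of each in the other classes, with at least 200 counts in all, and a few further genes were named after their values had been seen. Some genes named by the rule are not reported here. The alternatives were clusters from Seurat 5.3.0 under R 4.3.3, stricter cell filters, equal weight per cell, centring, subtraction of free RNA, other cuts and other zones. The scripts used Python 3.11.15, NumPy 2.4.6, SciPy 1.17.1, pandas 2.3.3 and matplotlib 3.10.9 and were tested on simulated data.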

Additional observations from a re-analysis of the deposited data

Results flagged for a closer look

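Lpl, Apoa1, Apoc3 and Lipc had opposite directions between the libraries in different cell classes, with both counting intervals off 0 and at least 1 value past 1.5-fold. With 1 library per label, the differences between classes were not tested. Lpl was at 0.15 in hepatocyte-like and -1.38 in macrophage-like cells, a difference of 1.53 on the log2 scale. For Apoa1 the hepatocyte-like ratio of -0.01 was lower than that in macrophage-like cells by -0.72 and than that in stellate-like cells by -0.86. The same differences were -0.75 and -0.89 for Apoc3, and -0.94 for Lipc between hepatocyte-like and macrophage-like cells. The hepatocyte-like direction of 3 of these genes changed under alternatives, to 0.01 for Apoa1 and 0.008 for Lipc with equal weight per cell, and to -0.09 with equal weight and -0.05 with clusters for Lpl. Apoa1 was also at 0.006 with a marker cut 2 times as high and at 0.01 without the cells with the most counts. For Apoa1, Apoc3 and Lipc the share of hepatocyte RNA in macrophage-like cells was 37.5% and 23.7%, and its part in the result was not tested. For Lpl, macrophage RNA would give 42.9% and 76.5% of the level in hepatocyte-like cells, so 0.15 is not a value of hepatocytes alone. Its part in the result was not tested either.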

How the results depend on the processing

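No paired analysis was possible because each label has 1 library, and for the same reason no replicate could be left out. The count of genes past 1.5-fold in hepatocyte-like cells moved from 0 to 1 (Apoa4) with equal weight per cell and without the tenth of cells with the most counts. In macrophage-like cells it moved from 5 to 1 (Lpl) with equal weight, to 3 (Apoe, Cd36 and Lpl) with free RNA subtracted, to 2 (Cd36 and Lpl) with no limit on hepatocyte marker counts and to 0 with the same mix of program ranges. In endothelial-like cells it moved from 0 to 1 (Lpl) with clusters, with stricter cell filters (500 genes, 5% mitochondrial), with equal weight and with subtraction, and to 2 (Apoe and Lipc) with no limit. In stellate-like cells it moved from 3 to 1 with clusters (Lpl), equal weight (Lipc) and no limit (Lipc), and to 0 with subtraction. The limit and the mix were chosen after seeing the data. Among called ratios, 2 changed sign, Scarb1 in stellate-like cells to 0.15 with equal weight and Cd36 in macrophage-like cells to 0.055 with the same mix. Lpl in macrophage-like cells ranged from -1.53 to -0.57. Of 378 values of single genes under alternatives, 354 kept their direction. These include 36 of 36 with no minimum of counts, which could not change because every gene already met the minimum. They also include 36 of 36 with centring, which moved values by at most 0.054. The count of zoned genes was 0 and that of genes above free RNA 3 or 4 under each alternative run for them. Subtraction gives values only for genes at 1.5 times free RNA or more. These values were not rescaled for the larger part taken out in the library labelled AEG-1DMAC, which makes them and the counts from them lean lower. Unless fewer cells or genes show it, the cause was not tested.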

Other observations

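Within endothelial-like cells, Cd36 and Scarb1 were split by marker genes chosen after the data had been seen. Cells with a count of Wnt2, a signal of the pericentral endothelium, had 739 and 856 CPM of Cd36 against 918 and 1068 CPM in cells without it, a log2 ratio of -0.31 and -0.32. Scarb1 went the other way, at 0.35 (-0.11 to 0.81) and 0.62 (0.26 to 0.98). With Rspo3, another signal of the central vein, Cd36 was at -0.70 and -0.59 and Scarb1 at 0.33 (-0.20 to 0.84) and 0.43 (0.03 to 0.82). With Vwf, a gene of larger vessels, Cd36 was at -0.51 and -0.52 and Scarb1 at 0.16 (-0.415 to 0.70) and 0.02 (-0.36 to 0.40). With Efnb2, an arterial and periportal gene, Cd36 was at 0.21 and 0.35 and Scarb1 at -0.24 (-0.70 to 0.22) and -0.35 (-0.69 to -0.007). Cells with a count of Wnt2 were deeper, with medians of 4670 and 4387 counts against 3508 and 3512, and the part of depth in these splits was not tested.

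The 4 Y-linked genes lay between -0.28 and 0.19 on the log2 scale between the libraries in hepatocyte-like cells. Of 4 genes more abundant in female liver with at least 20 counts, 4 were higher past 1.5-fold, where 12.9% of all genes passed it. Among them, Sult1e1 and Cyp2b9 were at 4.91 (20.1 against 0.668 CPM) and 3.90 (15.7 against 1.05 CPM), and Cyp2a4 was at 0.62. Of 6 genes more abundant in male liver, 1 was higher past 1.5-fold, Elovl3 at 1.51 (88.6 against 31.2 CPM). A further 2 were lower, among them Mup20 at -0.90. The part of these differences in the ratios of the lipoprotein genes was not tested.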
